A study of Caenorhabditis elegans with 6 samples.

Results

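Of the 26192 probe sets tested, 10 read the chosen genes of muscle thick filaments and of giant and immunoglobulin-domain muscle proteins in Caenorhabditis elegans. The members were taken by gene symbol in the platform annotation, with earlier results of these arrays known, and none was left out for its values. They are the myosin heavy chain genes unc-54, myo-3, myo-1, myo-2 and myo-5, the paramyosin gene unc-15, and unc-22, unc-89, ttn-1 and dim-1. Each has 1 probe set that carries no other gene, and all 10 gene identifiers matched RefSeq. The samples were 6 one-colour Affymetrix arrays of total RNA from whole wild-type N2 hermaphrodites. Worms synchronised by bleaching were fed E. coli OP50 for 48 h up to L4, the last larval stage, and then spent 24 h at 20 °C in 50% M9 buffer. The control group (3 arrays) had buffer alone. The exposed group (3 arrays) had buffer with 500 µg/mL of BSA-SPIONs, superparamagnetic iron oxide nanoparticles with a monolayer of bovine serum albumin. No arrays of albumin alone or of bare particles were among the samples, so effects of particle and coat cannot be told apart. Nothing in the labels says that the replicates were separate cultures, and each p-value therefore reflects only how far these arrays differ, possibly for technical reasons. The library titled control 3 carries the number 2 in its source label, and the title was followed.

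In worm muscle, as in other striated muscle, myosin heavy chains pair into rods whose heads pull on actin. Body wall muscle, which moves the animal, builds its thick filaments from the heavy chains of unc-54 (the major form, MHC B) and myo-3 (MHC A, in the filament centre). The pharynx, the feeding pump, uses those of myo-1 and myo-2. Paramyosin forms the core of the filament. Twitchin (unc-22) and the titin-like protein of ttn-1 are very long chains of immunoglobulin and fibronectin domains with kinase domains, and the obscurin homolog of unc-89 sits at the M-line, where filaments are tied together at their middle.

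All 10 genes had lower mean levels in exposed than in control worms, and 3 of them fell past the threshold: the myosin heavy chain genes myo-5 and myo-1, and dim-1. The threshold was an adjusted p under 0.05 in limma over all probe sets tested, where 2.6% of probe sets were called lower and 1.06% higher. The other 7 did not pass. At an unadjusted p under 0.05 all 10 were lower, against 12.4% of the probe sets tested, and 0 were higher, against 10.1%. The 3 exposed arrays lay wholly below the 3 controls for 9 of the 10, against 13.5% of all probe sets. The median log2 change of the 10 was -1.24, against 0.05 over all probe sets. The changes ran from -0.74 (unc-54) to -1.70 (myo-2). These genes were taken up with earlier results of the same arrays known, so the counts describe these arrays and carry no test of their own. In RNA of whole worms, less muscle and less RNA per muscle cell cannot be told apart.

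**Figure D1:**
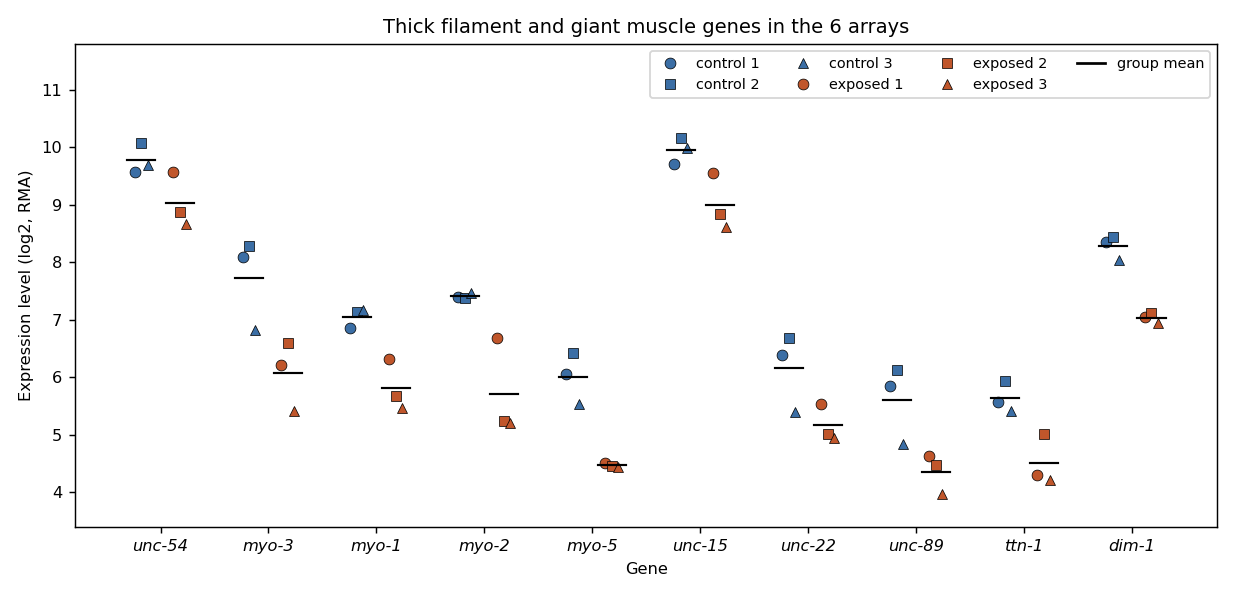
Level of each gene (log2, RMA) in the 6 arrays; symbols mark the replicate, colours the group, and bars the group means. Levels compare arrays within a gene, not genes with one another. Exposed 3 is the lowest array for all 10 genes, and unc-22 is the only one of the 10 whose groups overlap.

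Levels below are log2 values as the authors deposited them, given in the order of replicates 1, 2 and 3. Means carry the SD over n = 3 arrays, and each adjusted p is from the limma fit with Benjamini-Hochberg adjustment over 26192 probe sets.

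Among the body wall heavy chains, myo-3 stood at 8.10, 8.28 and 6.82 in controls and at 6.21, 6.60 and 5.41 in exposed worms. The groups did not overlap, but control 3 was only 0.22 above the highest exposed array. The means were 7.73 ± 0.80 and 6.07 ± 0.60, a log2 change of -1.66 (3.16-fold lower) with an adjusted p of 0.090, which did not pass. The major heavy chain gene unc-54, in which many uncoordinated mutants of the worm have been found, was at 9.58, 10.08 and 9.69 in controls and at 9.58, 8.87 and 8.67 in exposed worms. Exposed 1 was level with control 1, with a gap of 0.00068 between the groups, while exposed 2 and exposed 3 lay lower. The change of unc-54 was -0.74, or 1.67-fold lower, the smallest of the 10 (adjusted p = 0.176). Set against each other within each array, unc-54 minus myo-3 was 1.48, 1.79 and 2.88 in controls and 3.37, 2.27 and 3.26 in exposed arrays. These ranges overlapped, and an exact two-sided permutation test of the difference of 0.92 between the changes gave p = 0.2 (adjusted p = 0.45 over the 12 pairs of genes compared in this way). With 3 arrays against 3 that test cannot go below 0.1, so no pair could have passed.

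Of the pharyngeal heavy chain genes, 2 of 3 fell past the threshold. The gene myo-5, a muscle myosin of the same family expressed in the pharynx, was at 6.05, 6.42 and 5.53 in controls and at 4.51, 4.46 and 4.45 in exposed worms. The exposed arrays lay within a narrow band, 1.02 below the lowest control. Medians of the exposed arrays over all deposited probe sets were 3.64 to 3.88, and RMA compresses low values. Whether this narrowed the band was not tested. Its mean fell from 6.0 ± 0.45 to 4.47 ± 0.03, a 2.89-fold lower level (adjusted p = 0.025). Another pharyngeal heavy chain gene, myo-1, was at 6.86, 7.13 and 7.17 in controls and at 6.31, 5.67 and 5.47 in exposed worms. Exposed 1 was the nearest to the controls, 0.55 below the lowest of them. The mean of myo-1 fell from 7.05 ± 0.17 to 5.82 ± 0.44, or 2.36-fold lower (adjusted p = 0.046). The third, myo-2, whose promoter is widely used to mark the pharynx, was at 7.40, 7.38 and 7.46 in controls and at 6.69, 5.24 and 5.21 in exposed worms. Controls were nearly equal, and the exposed arrays were spread over a wider range. Its change of -1.70 (3.25-fold lower) was the steepest of the 10 and did not pass (adjusted p = 0.062). Its SD was 0.85 in exposed worms and 0.04 in controls. The pairwise differences between the changes of the 3 pharyngeal genes ran from -0.17 to 0.46, with exact permutation p-values of 0.3 to 0.8. That test cannot go below 0.1 here, so it cannot tell whether these genes fell alike.

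Paramyosin, the product of unc-15, had values of 9.70, 10.16 and 9.99 in controls and 9.55, 8.84 and 8.61 in exposed worms. As for unc-54, exposed 1 was close to the controls and the other two were lower. The change was -0.95 ± 0.28 (SE), or 1.93-fold lower, with an adjusted p of 0.106. Within arrays, unc-15 minus unc-54 was 0.13, 0.08 and 0.29 in controls and -0.02, -0.03 and -0.06 in exposed arrays, without overlap. The exact permutation p of this difference was 0.1, the smallest the design allows (adjusted p = 0.45 over the 12 pairs).

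Of the giant and immunoglobulin-domain genes, dim-1 alone passed. Its protein lies near dense bodies, the anchors of thin filaments, and dim-1 mutations suppress the muscle disorganisation of weak unc-112 alleles. Control arrays were at 8.36, 8.44 and 8.05 and exposed arrays at 7.04, 7.11 and 6.94. Both groups were tight and lay 0.93 apart. The mean fell from 8.28 ± 0.21 to 7.03 ± 0.09, or 2.38-fold lower, with an adjusted p of 0.021, the lowest of the 10.

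The obscurin homolog gene unc-89 was at 5.85, 6.14 and 4.84 in controls and 4.63, 4.47 and 3.98 in exposed worms. Control 3 lay nearer to exposed 1 than to the other controls. The change was -1.25 (2.38-fold lower, adjusted p = 0.0997). The titin-like gene ttn-1 was at 5.56, 5.94 and 5.41 in controls and at 4.31, 5.02 and 4.22 in exposed worms, with exposed 2 the closest to controls. Its change was -1.12 (2.18-fold lower, adjusted p = 0.068). The lowest exposed values of unc-89 and ttn-1, 3.98 and 4.22, also stood near the exposed array medians of 3.64 to 3.88. Twitchin, from unc-22, whose mutants twitch, was at 6.39, 6.68 and 5.40 in controls and at 5.53, 5.02 and 4.95 in exposed worms. Here control 3 lay below exposed 1, so the groups overlapped. Its change of -0.99 (1.98-fold lower) had an adjusted p of 0.159. A further probe set, which the platform assigns to both unc-22 and ZK617.7 and which was therefore not counted or credited to either gene, was at 5.14, 5.21 and 3.92 in controls and 3.22, 2.67 and 2.49 in exposed arrays (log2 change -1.96, adjusted p = 0.041). Exposed values of that probe set are near the low end of the scale, where RMA compresses differences.

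**Figure D2:**
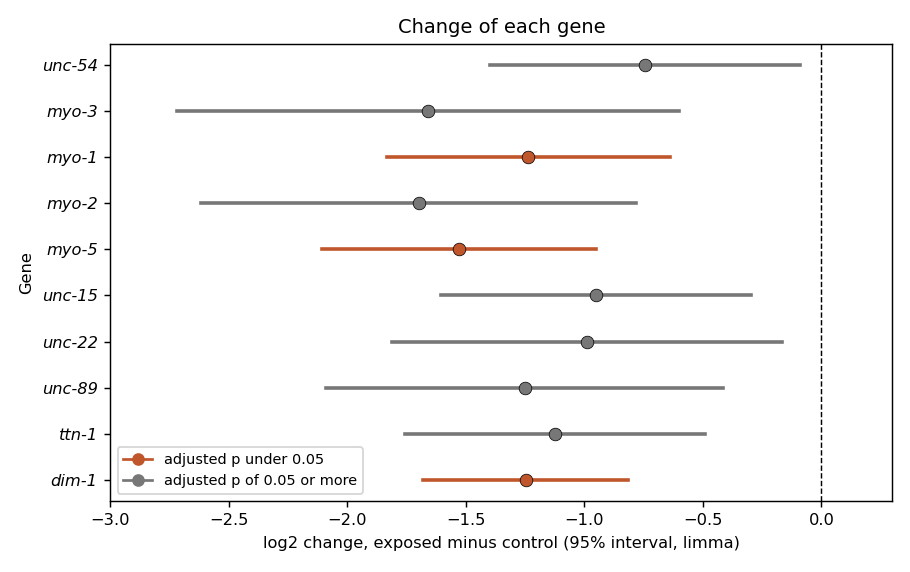
log2 change of each gene (exposed minus control, points) with its 95% interval from limma (lines), 3 arrays per group; the intervals are not adjusted for the number of probe sets. All 10 intervals lie below 0, that of unc-54 reaching up to -0.09. The changes run from -0.74 for unc-54 to -1.70 for myo-2, and myo-1, myo-5 and dim-1 passed the adjusted threshold.

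The 10 genes shared a dependence on particular arrays. Exposed 3 was the lowest of the 6 arrays for all 10, as it was for 17.4% of the probe sets tested, which include those that rose. Among the exposed arrays alone, exposed 3 was the lowest for 38.1% of all probe sets. Control 2 was the highest of the 6 for 8 of them, and control 3 for myo-1 and myo-2. Control 3 was the lowest control for 6 genes (myo-3, myo-5, unc-22, unc-89, ttn-1 and dim-1), against 37.8% of all probe sets. For unc-54, unc-15, myo-1 and myo-2 control 3 was in the middle or on top, and exposed 1 was the highest exposed array. The mean over the 10 genes was 7.38, 7.67 and 7.04 in controls and 6.44, 6.13 and 5.79 in exposed arrays. Array medians over all deposited probe sets were 3.92 to 3.95 in controls, 3.64 and 3.66 in exposed 1 and 2, and 3.88 in exposed 3. With equal array medians the median change of all probe sets rose to 0.27 and that of the 10 genes was -1.03. This scaling shifts every probe set's change by the same amount, so the distance of -1.30 between the medians is fixed by construction. The exposed arrays then lay wholly below the controls for 5 of the 10 genes, against 7.28% of all probe sets (9 and 13.5% as deposited), and myo-1 lost its call.

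The calls changed when single arrays were left out. Each such fit also has fewer arrays, and this was not told apart from the influence of the particular array. Without control 1, without control 2 or without exposed 3, 0 of the 10 passed limma's adjusted threshold, although 9, 8 and 8 of them had an unadjusted p under 0.05. In these fits 0.221%, 0.179% and 0.89% of all probe sets were called lower. Without exposed 1, myo-2 alone passed (adjusted p = 0.044), with 0.164% of all probe sets called lower. Without control 3, 5 passed: myo-3, myo-5, unc-22, unc-89 and dim-1, with 5.1% of all probe sets then called lower. Without exposed 2, ttn-1 and dim-1 passed, with 2.1% called lower. The call of myo-1 was lost without any one array, with adjusted p-values up to 0.155, that of myo-5 with any one left out but control 3 (up to 0.101), and that of dim-1 without control 1, control 2, exposed 1 or exposed 3 (up to 0.093). The direction was lower for all 10 genes under each of the 17 alternative settings. Most of these settings could not have reversed it, since the groups were separate for 9 of the genes.

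**Figure D3:**
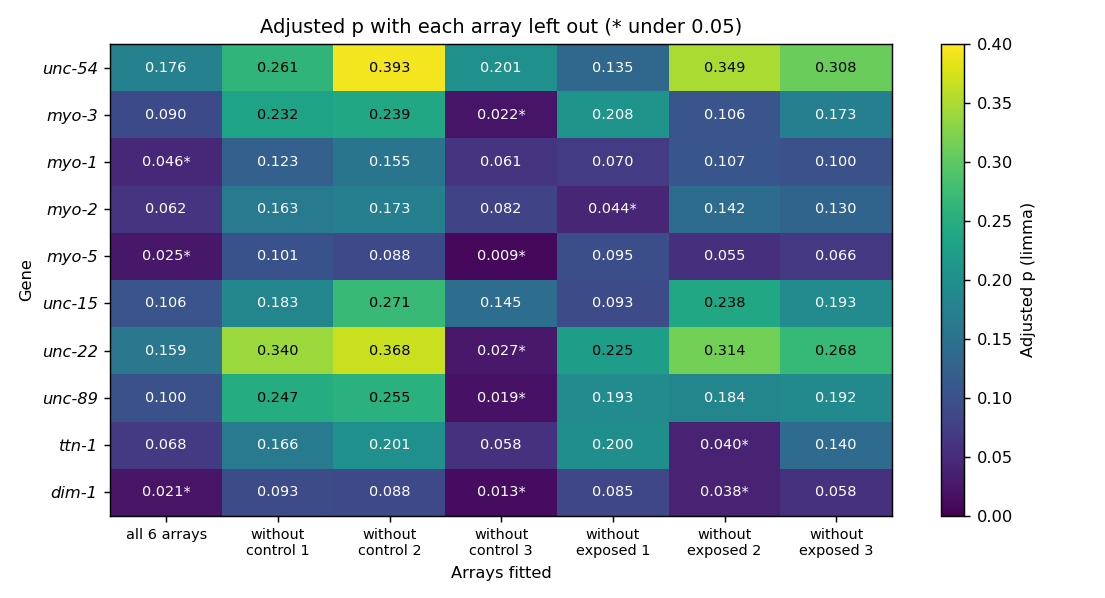
Adjusted p (limma, colour and number) of each gene with all 6 arrays and with each array left out; an asterisk marks values under 0.05. All 10 genes lack an asterisk without control 1, without control 2 and without exposed 3, while without control 3 myo-3, myo-5, unc-22, unc-89 and dim-1 carry one.

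Myosin light chains are the small subunits that sit on the neck of each heavy chain. Of 7 light chain genes, among them the non-muscle genes mlc-4 and mlc-5, 0 were called (limma) and 0 had an unadjusted p under 0.05. The median log2 change was -0.01, which is the value of mlc-5. The essential light chain gene mlc-3 had means of 10.61 ± 0.01 and 10.27 ± 0.17 (change -0.33, adjusted p = 0.310), with exposed arrays wholly below the controls. For mlc-1, a regulatory light chain gene, the means were 10.21 ± 0.45 and 9.87 ± 0.36 (change -0.34, adjusted p = 0.542). The levels of mlc-7 were 9.33 ± 0.28 and 9.53 ± 0.23 (adjusted p = 0.636). The gene mlc-2, named after its values were seen, encodes a regulatory light chain nearly identical to that of mlc-1, so their probe sets may read both. It was at 11.03, 11.68 and 11.29 in controls and at 11.43, 11.15 and 11.41 in exposed worms, with an 95% interval of -0.52 to 0.52 for its change. Within arrays unc-54 minus mlc-2 went from -1.45, -1.60 and -1.59 to -1.85, -2.28 and -2.74, without overlap. The exact permutation p was 0.1, the smallest possible (adjusted p = 0.45 over the 12 pairs). As mlc-2 was named after its values were seen, this separation is a description only. The same difference against mlc-1 and against mlc-3 overlapped between groups (exact p = 0.3 for both).

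Partners in filament assembly and at the M-line were mixed. Of 15 measured genes 0 passed in limma, while an unadjusted p under 0.05 was reached by 6 lower genes and 1 higher gene, and the median log2 change was -0.30. The M-line protein genes unc-98 and unc-96 had changes of -0.75 and -1.39 (adjusted p = 0.076 and 0.082), and lim-9, which encodes a LIM-domain protein of the M-line, had -0.81 (adjusted p = 0.106). The values of unc-96 were 6.67, 6.63 and 6.96 in controls and 6.18, 5.21 and 4.71 in exposed worms, so that exposed 1 was again the exposed array nearest to controls. The myosin chaperone gene unc-45, named after its values were seen, was at 6.27 ± 0.05 and 6.29 ± 0.42, with an 95% interval of -0.55 to 0.58 for its change. Other myosins gave no calls: of 10 genes for non-muscle and unconventional heavy chains 0 passed in limma, an unadjusted p under 0.05 was reached by 2 lower and 0 higher genes, and the median was -0.02. The unconventional myosin genes hum-4, hum-5 and hum-7 had changes of -1.14, -0.68 and -0.44 with adjusted p-values of 0.169, 0.171 and 0.231.

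The thin filament, attachment and calcium handling lists held 7 further calls, all lower. Of all probe sets tested, 2.6% were called lower. Of 22 thin filament genes 3 fell and 0 rose past the threshold, with a median of -0.43. The 3 were the troponin subunit genes tnc-2, tni-1 and mup-2, with changes of -1.0, -2.37 and -1.23 (adjusted p = 0.038, 0.044 and 0.049). An unadjusted p under 0.05 was reached by 9 lower and 2 higher thin filament genes, and 6 of the 22 had a positive change. The actin gene act-2, named after its values were seen, had a change of 0.83 (adjusted p = 0.060). Of 22 genes of dense bodies and M-line attachment, read by 23 probe sets, 2 fell and 0 rose, with a median of -0.35. These were the profilin gene pfn-3 (-1.03, adjusted p = 0.043) and uig-1, which encodes an exchange factor that binds UNC-112 (-1.37, adjusted p = 0.043), while the paxillin homolog gene pxl-1 had -0.89 (adjusted p = 0.054). Among the muscle lists, calcium handling had the median nearest to that of the 10 member genes. Of 11 calcium handling genes all 11 had a negative change, 2 fell and 0 rose, and the median was -1.06. The calcium channel subunit gene unc-36 went from 6.71 ± 0.19 to 4.44 ± 0.88 (adjusted p = 0.034) and the junctophilin gene jph-1 from 7.29 ± 0.38 to 5.67 ± 0.49 (adjusted p = 0.039). The CaM kinase II gene unc-43 had a change of -1.10 and an adjusted p of 0.072. Several genes of this list, unc-36 and unc-43 among them, also act in neurons. Exposed 3 was the lowest of the 6 arrays for 9 of these 11 genes. Among 10 muscle regulator genes, not all of them regulators of muscle fate, 0 passed in limma and the median was -0.22. Unadjusted p-values under 0.05 were reached by 1 lower and 1 higher gene. The transcription factor genes hnd-1 and mef-2 had changes of 0.95 and -1.19 (adjusted p = 0.099 and 0.0997), and the FGF receptor gene egl-15 had -0.66 (adjusted p = 0.262). No test compared these lists with the 10 member genes.

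**Figure D4:**
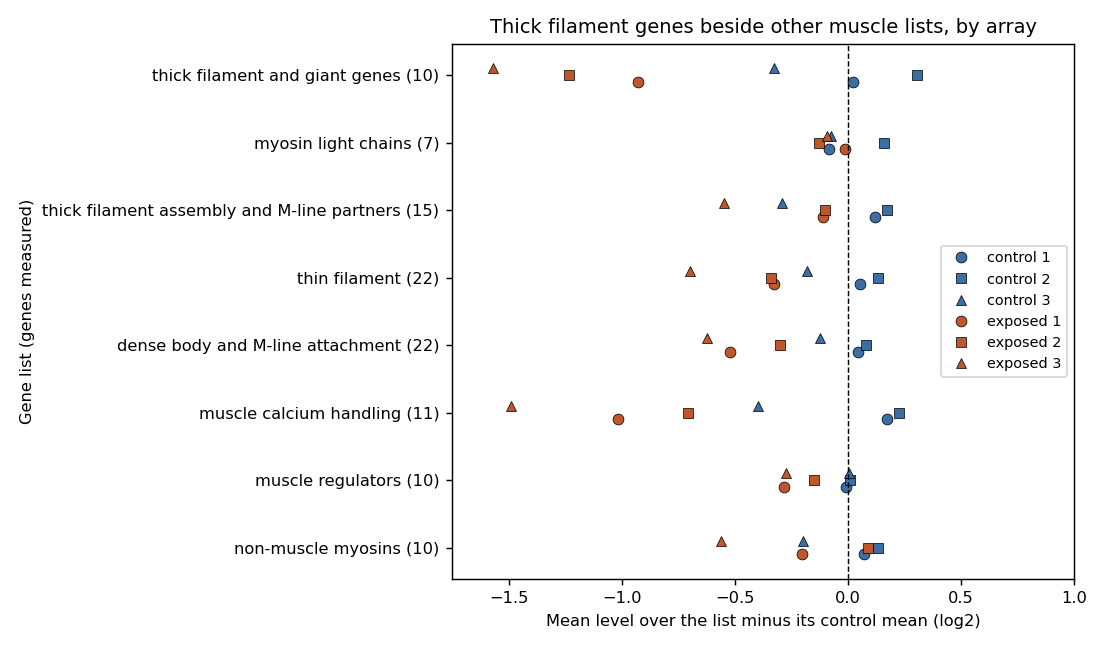
Mean level over the thick filament and giant genes and 7 other muscle and myosin lists in each array, minus the mean of the controls for that list (log2); symbols mark the replicate and colours the group, and the number of genes measured is in brackets. Of the 8 lists plotted, the thick filament and giant genes and the calcium handling genes lie furthest left in exposed arrays. The groups overlap for the myosin light chains, the assembly and M-line partners and the non-muscle myosins.

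Markers of other cells moved in the same comparison. Over all probe sets tested, 2.6% were called lower and 1.06% higher. An unadjusted limma p under 0.05 was reached by 12.4% on the lower side and 10.1% on the higher. The exposed arrays lay wholly below the controls for 13.5%, and 44.7% had a negative change. Of 19 neuronal genes 7 were called lower and 0 higher, 18 had a negative change, and 16 had an unadjusted p under 0.05, all lower. The groups were separate, with exposed below control, for 16 of the 19. Their median log2 change was -1.12, close to the -1.24 of the thick filament and giant genes. Their mean level was 6.58 to 7.49 in controls, lowest in control 3, and 5.81 to 5.94 in exposed arrays. Of 10 genes of pharyngeal glands and marginal cells 3 were called lower and 0 higher, with means of 6.44 to 6.71 in controls and 5.38 to 5.77 in exposed arrays. Of 14 intestinal genes 2 were called lower and 0 higher (8.45 to 8.60 and 7.91 to 8.27), and of 14 hypodermal genes 0 were called either way (6.03 to 6.17 and 5.65 to 5.95). Of 19 germline and oocyte genes 0 were called in limma, 10 had an unadjusted p under 0.05 on the higher side and 0 on the lower, and all 19 had a positive change (7.09 to 7.97 and 7.89 to 8.61). For those 19 genes control 3 was the lowest control and exposed 3 the lowest exposed array in every case. Over all probe sets tested these shares were 37.8% and 38.1%. Of 17 sperm genes 1 was called higher and 0 lower (2.80 to 3.0 and 3.05 to 3.39), and of 14 embryo genes 0 were called (4.93 to 5.38 and 5.13 to 5.48). The RMA scale has no true zero and detection calls were not used, so no marker can be said to be absent. The part of these cell types in the lower muscle values was not tested.

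Over the 6 arrays, the 5 genes outside the 10 whose levels followed the mean of the 10 most closely were itr-1, the inositol trisphosphate receptor gene (Pearson r = 0.998), pqn-24 (0.997), bcl-11 (0.996), apm-1, an adaptor subunit gene of clathrin-coated vesicles (0.995), and vha-10, a vacuolar ATPase subunit gene (0.994). They were drawn from 12676 single-gene probe sets with a mean above the median, of which 858 had an r above 0.9. The same 6 arrays, in both groups, stand behind each r, so a shared difference between the groups is part of it. The levels of bcl-11 went from 8.29 ± 0.40 to 6.35 ± 0.42 (adjusted p = 0.022) and those of pqn-24 from 8.20 ± 0.25 to 7.17 ± 0.23 (adjusted p = 0.047). Changes of itr-1, apm-1 and vha-10 were -0.59, -0.73 and -0.63 and did not pass (adjusted p = 0.128, 0.095 and 0.124).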

How the data were processed

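Total RNA of 3 control and 3 exposed worm samples was amplified with the NuGEN Ovation Pico kit and hybridised as labelled cDNA, per the labels' protocols. The deposited values are log2 expression values. Per the submitters' processing notes the authors used RMA and the Affymetrix Expression Console. Neither tool versions nor the genome build was stated, and coordinates are left out. RMA corrects background, quantile-normalizes arrays and summarises probes, and it compresses low values. The number of arrays limits the precision. Scanner files were not used here.

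Of 29317 probe sets, 26192 have a platform gene symbol (646 of them several) and were fitted with limma 3.58.1 in R 4.3.3 (lmFit, eBayes without trend, two-sided), exposed minus control. RefSeq symbols (WBcel235, names only) matched 25495 and changed 0. The members and lists were chosen with earlier results of these data known. Named are all 10 members, the 3 genes of each muscle list with the smallest p, the 5 genes most like the members, and others said to be chosen afterwards. The fit was tested on simulated data. Replicate numbers were not used as pairs in the main fit. Deviations of same-numbered arrays correlated at 0.14, 0.08 and 0.25, and those of differently numbered arrays at -0.23 to 0.19. Whether same-numbered arrays were handled together is not stated. Pairs of genes were compared within arrays by exact permutation tests. No 2 arrays shared more than 42 identical values.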

Additional observations from a re-analysis of the deposited data

How the results depend on the processing

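With 3 arrays per group, the calls varied with the arrays fitted and the scaling. Each of the 10 genes stayed lower under all 17 alternatives, but most of these could not have turned the direction. For the 9 genes with separate groups, leaving out, averaging or weighting arrays cannot change the sign. Changing only the eBayes setting, the replicate block or the probe sets fitted left each log2 change as it was. Rescaling could have changed the sign, and so could leaving out, averaging or weighting arrays for unc-22. Leaving out single arrays moved the number of the 10 genes called from 3 to between 0 and 5, and that of all probe sets from 959 to between 49 and 1996. Without both arrays numbered 3 these were 5 and 2317, and with array weights 8 and 3473. The replicate block gave 5 of the 10 genes (myo-3, myo-5, unc-89, ttn-1 and dim-1) and 978 probe sets. The arrays share only a number, and not every array correlated best with its own number. With equal array medians the groups were separate for 5 of the 10 genes instead of 9, while the share of all probe sets with exposed below control fell from 13.5% to 7.28%. Of the 10 alternatives that left out no array, myo-5 and dim-1 kept their calls in 10 each and myo-1 in 4. The genes unc-54 and unc-15 were called under 0 of the 17, with limma adjusted p-values of 0.135 to 0.393 and 0.079 to 0.271. The median log2 change of the 10 genes moved between -1.03 and -1.37 over all alternatives. The causes were not tested.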
